A study of Saccharomyces cerevisiae W303 with 9 samples.

Results

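The genes described here encode the cytosolic Hsp90 chaperones of budding yeast, HSP82 (YPL240C) and HSC82 (YMR186W), and 8 of their co-chaperones, STI1 (YOR027W), AHA1 (YDR214W), HCH1 (YNL281W), CPR6 (YLR216C), CPR7 (YJR032W), SBA1 (YKL117W), CDC37 (YDR168W) and CNS1 (YBR155W). They were taken by their identifiers from a table of read counts for 7127 annotated features, and the set was chosen with earlier results of these data known. All 10 were among the 5970 genes with enough counts to be tested. The libraries were made from poly(A) RNA of 3 strains of the W303 laboratory background, with 3 isolates of each strain grown in YPD, a rich glucose medium, to mid-log phase. The groups are an aim29 deletion mutant carrying pmTDH3-ZPR1 (the construct strain), the aim29 deletion mutant alone (the deletion strain), and the wild type. The construct strain and the deletion strain thus share the loss of AIM29. The count columns of the construct strain are labelled ZPR1OE. What pm stands for in pmTDH3-ZPR1, and where the construct sits, is not in the labels. TDH3 encodes an abundant glycolytic enzyme, and the product of ZPR1 helps the translation factor eEF1A to fold.

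Hsp90 is an ATP-driven dimeric chaperone that acts late in folding, on proteins such as kinases and transcription factors that it often receives from Hsp70. Co-chaperones set the pace and the clients of this cycle. Sti1 links Hsp70 to Hsp90, Aha1 and its shorter relative Hch1 act on the ATPase, the p23 protein Sba1 holds the closed state, and Cdc37 brings kinases. The cyclophilins Cpr6 and Cpr7 and the essential protein Cns1 bind the tail of Hsp90 through tetratricopeptide repeats. In yeast HSC82 is known as the constitutively abundant Hsp90 gene and HSP82 as the more heat-inducible one, and the heat shock factor Hsf1 drives several genes of the set through repeated GAA units in their promoters.

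The upstream sequences are shown to describe where these units stand, and their part in the differences between the strains was not tested. Windows from 250 bases before to 50 bases after the start codon were read from the R64 reference, which is the sequence of another laboratory strain, S288C. A heat shock element was counted as 5-base units NGAAN and NTTCN that alternate with no gap, on either strand. Runs of 2 or more units were in the windows of 7 of the 10 genes (HSP82, HSC82, STI1, AHA1, HCH1, CPR6 and SBA1), against 22.4% of the 6001 windows of nuclear protein-coding genes. Runs of 3 units were in STI1 alone, which held a pair of them, against 0.783% of all windows. The windows of HSP82 and HSC82 each held a further 2-unit run near the start codon that is not printed. In the stretches below, written 5′ to 3′ on the strand of the gene, capitals mark the 3 fixed bases of each unit in a run. The stretch of HSP82 is chrXVI:98822-98875 (minus), that of HSC82 chrXIII:632107-632183 (plus) and that of STI1 chrXV:380803-380854 (plus). The stretch of HCH1 is chrXIV:108270-108339 (plus), that of CPR6 chrXII:573311-573380 (minus), that of AHA1 chrIV:892739-892808 (plus) and that of SBA1 chrXI:220225-220273 (plus).
HSP82: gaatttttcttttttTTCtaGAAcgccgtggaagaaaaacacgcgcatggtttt
HSC82: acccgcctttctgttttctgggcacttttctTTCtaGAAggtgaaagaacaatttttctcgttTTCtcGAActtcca
STI1: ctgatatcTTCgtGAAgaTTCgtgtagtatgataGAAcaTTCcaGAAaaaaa
HCH1: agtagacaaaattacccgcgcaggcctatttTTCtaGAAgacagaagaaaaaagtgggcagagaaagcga
CPR6: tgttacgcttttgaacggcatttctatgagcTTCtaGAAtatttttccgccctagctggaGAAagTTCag
AHA1: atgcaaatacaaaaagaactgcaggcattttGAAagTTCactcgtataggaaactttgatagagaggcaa
SBA1: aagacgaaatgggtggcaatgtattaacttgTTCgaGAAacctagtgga

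The same 8 bases, TTCTAGAA, stood in the windows of HSP82, HSC82, HCH1 and CPR6, and in 1.15% of all windows; this palindrome, which is a special case of the 2-unit run, was looked for after the sequences were seen. The windows of CPR7, CDC37 and CNS1 held no run of 2 units, which says only that these letters are not in this stretch. The stress element AGGGG, bound by Msn2 and Msn4, was in the windows of HSP82, SBA1 and CPR7, inside the reading frame in CPR7, against 21.6% of all windows. The Gcn4 element TGACTC was in 0 of the 10 windows, against 7.98% of all windows. A match of letters is a description of the sequence and was not tested for binding. Each of the 10 genes has a single coding exon in R64 and overlaps no other annotated gene. STI1 is at chrXV:381053-382822 (plus), AHA1 at chrIV:892875-893927 (plus), HCH1 at chrXIV:108467-108928 (plus) and CPR6 at chrXII:572096-573211 (minus). CPR7 is at chrX:491081-492262, SBA1 at chrXI:220324-220974, CDC37 at chrIV:790328-791848 and CNS1 at chrII:549771-550928, all on the plus strand.

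**Figure D1:**
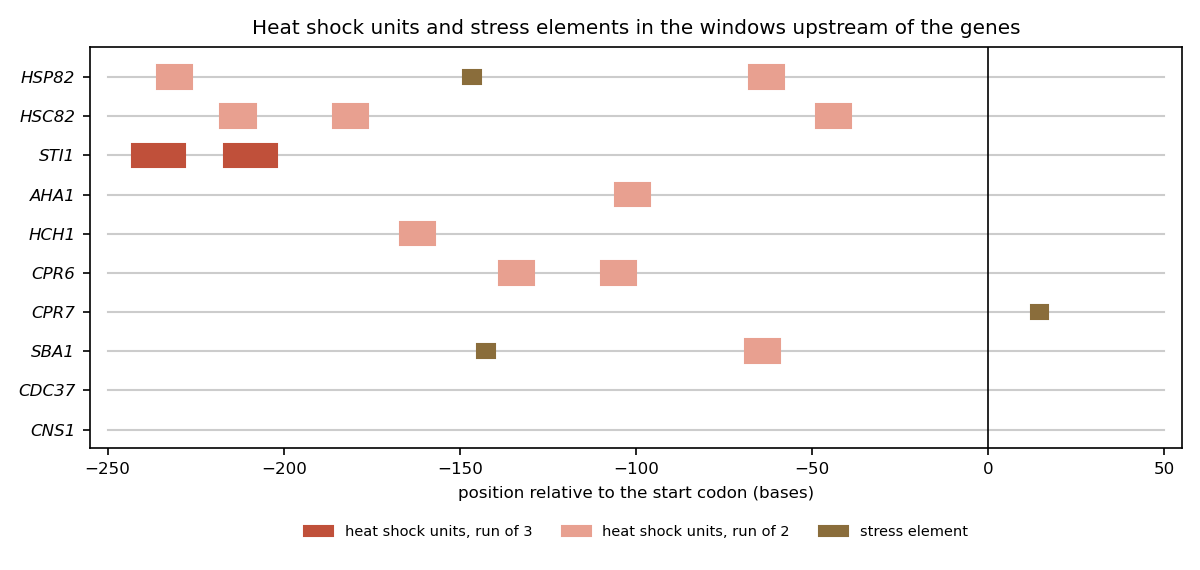
Heat shock units and stress elements by distance from the start codon (x axis, bases) in the 300-base window of each gene, drawn to scale. Dark red boxes are runs of 3 units, light red boxes runs of 2, and brown boxes the stress element; STI1 alone has runs of 3, and the windows of CDC37 and CNS1 are empty.

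The libraries held between 14380639 and 20140071 counts, in ranges that did not overlap between groups: 18044486 to 20140071 in the construct strain, 14380639 to 14586083 in the deletion strain, against 15601784 to 17140665 in the wild type. Levels are given as CPM, read counts scaled to the library total with edgeR's TMM factors. The biological coefficient of variation over all genes, which measures the spread among isolates beyond counting error, was 14.8% in the construct strain, 3.76% in the deletion strain, against 5.22% in the wild type, so the construct libraries stand apart in their spread and are given one by one. AIM29 was at 7.46, 7.05 and 5.17 CPM in construct libraries 1, 2 and 3, at 0.782, 3.87 and 3.63 CPM in the deletion libraries, against 76.0, 82.2 and 76.9 CPM in the wild-type libraries. ZPR1 was at 5645, 4856 and 5640 CPM in the construct libraries, at 445, 400 and 421 CPM in the deletion libraries, against 329, 322 and 337 CPM in the wild-type libraries.

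Both Hsp90 genes and 4 of the 8 co-chaperone genes were higher in the deletion strain than in the wild type, and the same 6 were lower in the construct strain when set against the deletion strain. HSP82 changed most and HCH1 and CPR6 least among the 6. CPR7, SBA1, CDC37 and CNS1 did not pass the test in any of the 3 comparisons. Each gene was tested with edgeR's quasi-likelihood test over all genes, with Benjamini-Hochberg adjustment and a threshold of 0.05. By this rule 6 of 10 genes were called higher in the deletion strain than in the wild type, where 4.24% of all tested genes were, and 0 were called lower, where 2.16% were. Against the deletion strain, 6 of 10 genes were called lower in the construct strain, where 3.72% of all tested genes were, and 0 higher, where 1.66% were. Those comparisons share the deletion libraries. The 10 genes were chosen with earlier results of these data known, so the counts set beside all genes are a description. In RNA pooled from a culture, a change in every cell and a larger change in some of the cells cannot be told apart.

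HSP82 (chromosome XVI, 96496 to 98625 on the minus strand, build R64, a single coding exon) had 722, 816 and 724 CPM in deletion libraries 1, 2 and 3, against 168, 207 and 182 CPM in the wild-type libraries. Each deletion library was thus above every wild-type library, by 4.06-fold in the fit (log2 fold change 2.02 ± 0.19, SE, adjusted p = 0.000116 by edgeR). This was the seventh-ranked rise among all tested genes. In the construct libraries HSP82 had 188, 350 and 234 CPM, which placed library 1 inside the wild-type range and library 2 well above it. The construct strain was 2.93-fold below the deletion strain (log2 fold change −1.55 ± 0.18, adjusted p = 0.000686 by edgeR). Against the wild type the construct strain was at 0.47 ± 0.18 on the log2 scale and was not called (adjusted p = 0.347 by edgeR); without construct library 2 the value was 0.18.

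HSC82 (chromosome XIII, 632355 to 634472 on the plus strand) was far more abundant and varied little between replicates. It had 5038, 5014 and 5012 CPM in the deletion libraries, against 2795, 2760 and 2895 CPM in the wild-type libraries. The 2 groups were well apart, 1.78-fold in the fit (log2 fold change 0.83 ± 0.05, adjusted p = 5.42e-06 by edgeR), and by p this was the sixth gene of the comparison. Its levels in the construct libraries were 3090, 2883 and 2994 CPM, below every deletion library (log2 fold change −0.75 ± 0.05, adjusted p = 1.38e-05 by edgeR) and overlapping the wild type (0.09 ± 0.05, adjusted p = 0.488). The coding sequences of HSC82 and HSP82 are identical at 92.4% of 2115 aligned positions, with a longest identical run of 113 bases, and 93.6% of the 50-base windows of each gene are unique in the genome. How reads that fit both genes were counted is not given in the sources used here, and its part in the HSP82 values was not tested.

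STI1, the co-chaperone that joins Hsp70 and Hsp90, came next in size. It had 1155, 1118 and 1095 CPM in the deletion libraries, against 500, 530 and 502 CPM in the wild-type libraries, with no overlap. The log2 fold change was 1.14 ± 0.06 (adjusted p = 4.59e-06 by edgeR), the fourth-lowest p of all tested genes. In the construct libraries STI1 stood at 578, 676 and 608 CPM, below all deletion libraries (−0.86 ± 0.06, adjusted p = 3.46e-05) and above all wild-type libraries. The difference of the construct strain from the wild type, 0.28 ± 0.06 on the log2 scale, was not called (adjusted p = 0.172 by edgeR).

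AHA1, which encodes the main activator of the Hsp90 ATPase, had 346, 353 and 348 CPM in the deletion libraries, against 189, 205 and 196 CPM in the wild-type libraries. The deletion strain was 1.78-fold higher, as for HSC82 (log2 fold change 0.83 ± 0.06, adjusted p = 2.83e-05 by edgeR). The construct libraries held 196, 226 and 222 CPM and were lower than the deletion strain (−0.70 ± 0.06, adjusted p = 0.000113). HCH1, its shorter relative, had 241, 258 and 225 CPM in the deletion libraries, against 163, 166 and 163 CPM in the wild-type libraries. This 1.47-fold difference was the smallest of the 6 (log2 fold change 0.56 ± 0.06, adjusted p = 0.000335 by edgeR). HCH1 was at 168, 182 and 169 CPM in the construct libraries, lower than in the deletion strain (−0.48 ± 0.06, adjusted p = 0.000899).

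The cyclophilin genes parted. CPR6 had 235, 242 and 235 CPM in the deletion libraries, against 152, 148 and 152 CPM in the wild-type libraries (log2 fold change 0.65 ± 0.06, adjusted p = 0.000134 by edgeR). In the construct libraries it had 155, 181 and 178 CPM, and it was lower than in the deletion strain (−0.47 ± 0.06, adjusted p = 0.00116) but above every wild-type library. CPR7, the other cyclophilin, had 101, 101 and 99.1 CPM in the deletion libraries, against 109, 99.3 and 97.5 CPM in the wild-type libraries. Its groups overlapped and the log2 fold change was −0.02 ± 0.06 (adjusted p = 0.888 by edgeR). CPR7 stood at 103, 109 and 104 CPM in the construct libraries, 0.07 ± 0.06 from the deletion strain on the log2 scale.

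SBA1, the yeast p23, had 460, 468 and 468 CPM in the deletion libraries, against 414, 417 and 418 CPM in the wild-type libraries. All deletion libraries were above all wild-type ones, by 11.7%, but the difference did not pass the test over all genes (log2 fold change 0.16 ± 0.05, adjusted p = 0.0740 by edgeR). It passed under 6 of 18 alternatives, among them DESeq2 (adjusted p = 0.0465) and edgeR with only those 2 groups compared (adjusted p = 0.00173). The construct libraries held 435, 399 and 411 CPM, again below the deletion libraries and not called (−0.16 ± 0.05, adjusted p = 0.0785 by edgeR; adjusted p = 0.0420 by DESeq2). CDC37, the kinase-specific co-chaperone, had 157, 168 and 163 CPM in the deletion libraries, against 160, 158 and 164 CPM in the wild-type libraries. These ranges overlapped (0.02 ± 0.07, adjusted p = 0.906 by edgeR). Its construct libraries, at 187, 154 and 170 CPM, were spread wider than those of the other groups.

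CNS1 encodes an essential co-chaperone, and its log2 fold changes were below 0 in all 3 comparisons, though not called in any. It had 134, 140 and 131 CPM in the deletion libraries, against 154, 140 and 134 CPM in the wild-type libraries, with overlap (−0.08 ± 0.09, adjusted p = 0.648 by edgeR). The construct libraries, at 130, 119 and 102 CPM, lay below all libraries of the deletion strain (−0.20 ± 0.09, adjusted p = 0.198) and of the wild type (−0.28 ± 0.09, adjusted p = 0.270), but neither difference was called. Counting all 10 genes, the deletion libraries lay wholly above the wild-type libraries in 7, where this held for 21.1% of all tested genes, and wholly below them in 0, where it held for 19.2% (40.4% in either direction). The construct libraries lay wholly below the deletion libraries in 8, where this held for 13.5% of tested genes, and wholly above them in CPR7 alone, where it held for 12.2% (25.7% in either direction). Set against the wild type, the construct libraries lay wholly above in STI1, HCH1 and CPR6, where this held for 7.81% of tested genes, and wholly below in CNS1, where it held for 8.58% (16.4% in either direction).

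**Figure D2:**
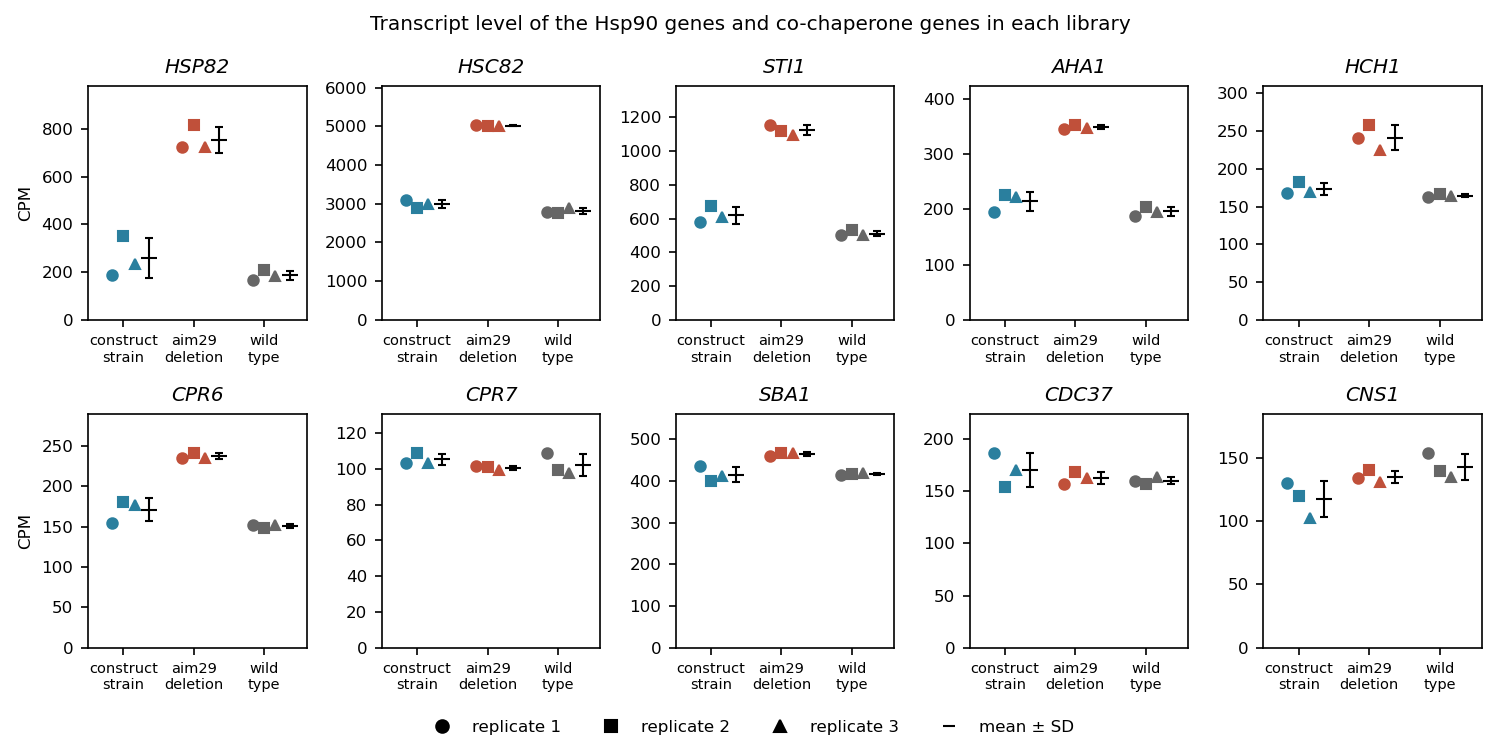
Level of each gene in each of the 9 libraries (y axis, CPM, from 0; own scale per panel) for the construct strain, the deletion strain and the wild type. Symbols are replicates and the black mark is the mean with its SD (n = 3). The 3 deletion libraries stand clear of the others for HSP82, HSC82, STI1, AHA1, HCH1 and CPR6, and by less for SBA1. The groups lie close together for CPR7 and CDC37, and the CNS1 construct libraries lie below the others.

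**Figure D3:**
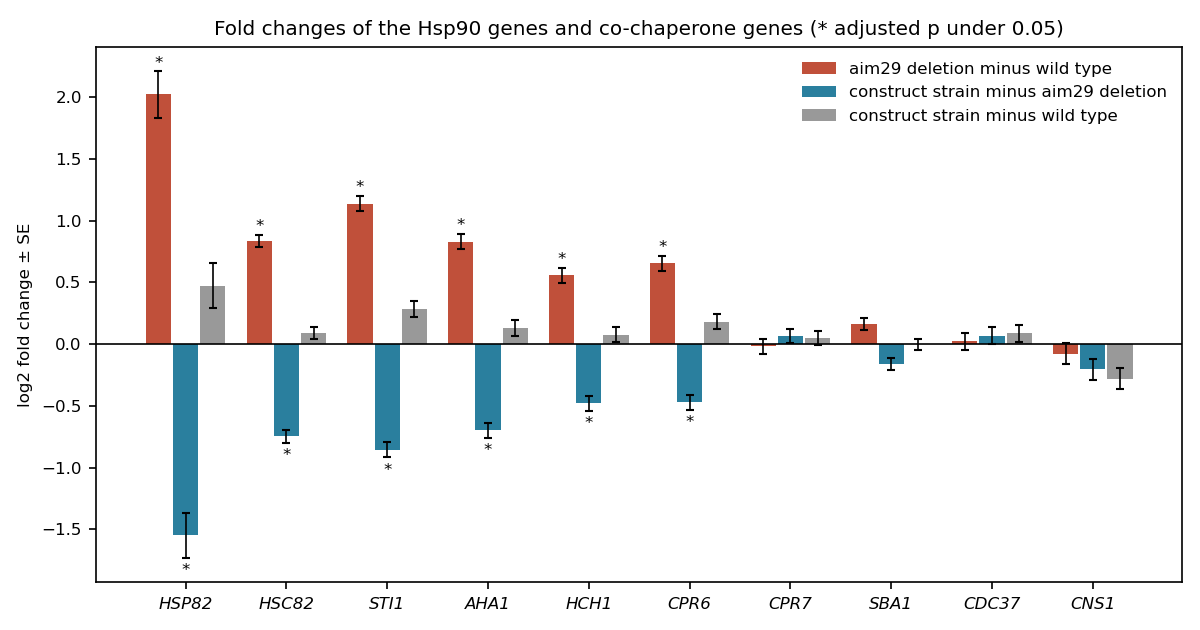
Fitted log2 fold changes with their standard error (y axis) of the 10 genes in the 3 comparisons, with an asterisk where edgeR's adjusted p was under 0.05. The 6 genes called higher in the deletion strain than in the wild type are those called lower in the construct strain against the deletion strain, and 0 are called between the construct strain and the wild type.

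Between the construct strain and the wild type edgeR called 0 of the 10 genes, where it called 0.117% of all tested genes higher and 0.067% lower; 4 of the 10 had an unadjusted p under 0.05, where 12.8% of all tested genes did. Those 4 were HSP82, STI1 and CPR6, with log2 fold changes of 0.47, 0.28 and 0.18, and CNS1, at −0.28. DESeq2 called STI1 higher (adjusted p = 0.0105), limma-voom called 0, and edgeR without construct library 1 called STI1 and CPR6 higher (adjusted p = 0.0369 and 0.0477). The median of the 10 log2 fold changes was 0.09, beside 0.01 for all tested genes. For the deletion strain against the wild type the medians were 0.61 for the 10 genes and 0.00355 for all tested genes. For the construct strain against the deletion strain they were −0.48 and 0.00313.

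The 3 construct libraries did not hold one order over the genes. HSP82, STI1, AHA1, HCH1, CPR6 and CPR7 were highest in library 2 and lowest in library 1. HSC82, SBA1, CDC37 and CNS1 were highest in library 1, and HSC82, SBA1 and CDC37 were lowest in library 2. On the log2 scale HSP82 was 0.02, 0.92 and 0.34 above the wild-type mean in construct libraries 1, 2 and 3, whereas HSC82 was 0.13, 0.03 and 0.09 above it. Library 2 also held the least ZPR1 and the most counts of the construct libraries, and their part in these orders was not tested. Over all tested genes library 2 was the highest of the construct libraries in 35.1%, beside 6 of the 10 genes here. Library 1 was the highest in 28.8% of all tested genes, beside 4 of the 10, and library 3 in 36.2%, beside 0. Which library was lowest was not counted over all genes.

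**Figure D4:**
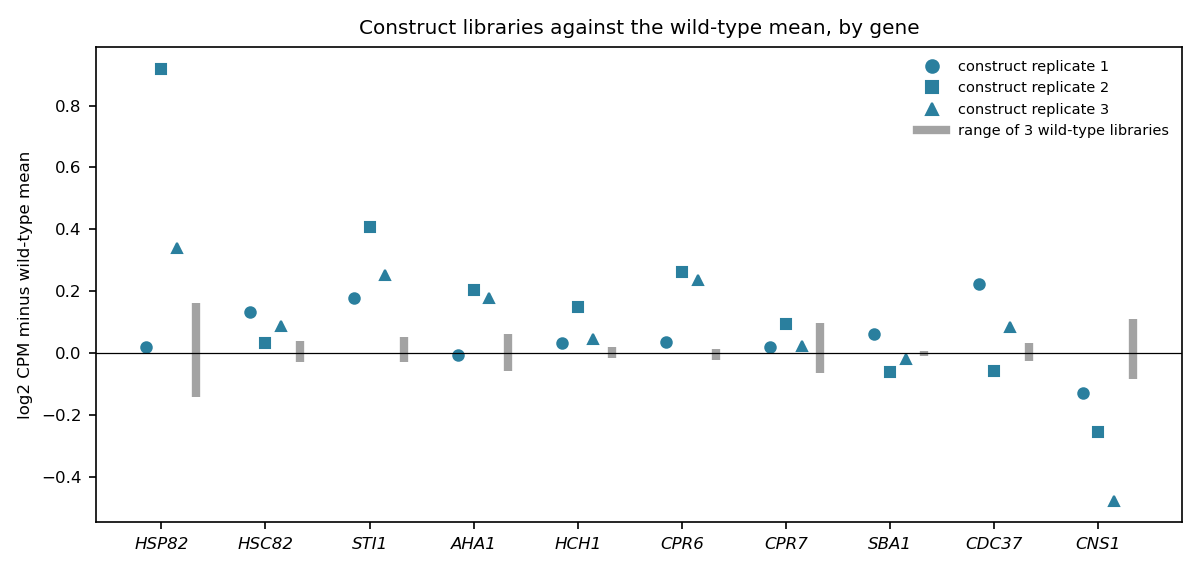
Log2 CPM of each construct library minus the wild-type mean (y axis) for the 10 genes, beside the range of the 3 wild-type libraries as a grey bar. Construct library 2 is at 0.92 for HSP82 and at 0.03 for HSC82, and the 3 construct libraries lie below the wild-type range for CNS1.

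HSP82 and HSC82 encode nearly the same protein, so their transcripts were also summed and set against each other. Summed over the pair, the libraries held 3278, 3233 and 3228 CPM in the construct strain, 5760, 5830 and 5736 CPM in the deletion strain, against 2962, 2967 and 3078 CPM in the wild type. The pooled level was thus highest in the deletion strain, and the construct libraries lay close above the wild-type ones. HSP82 made up 5.73%, 10.8% and 7.26% of the pair in the construct libraries, 12.5%, 13.99% and 12.6% in the deletion libraries, against 5.67%, 6.99% and 5.93% in the wild-type libraries. The log2 ratio of HSP82 to HSC82 was 1.19 higher in the deletion strain than in the wild type and fell by 0.85 in the construct strain relative to the deletion strain. In each of these 2 comparisons the groups did not overlap, and the exact two-sided permutation test gave p = 0.1, the smallest value that 3 libraries against 3 allow (0.15 after Benjamini-Hochberg adjustment over the 3 comparisons). Between the construct strain and the wild type the difference of 0.34 had p = 0.3 by the same exact test, and it was 0.07 without construct library 2.

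**Figure D5:**
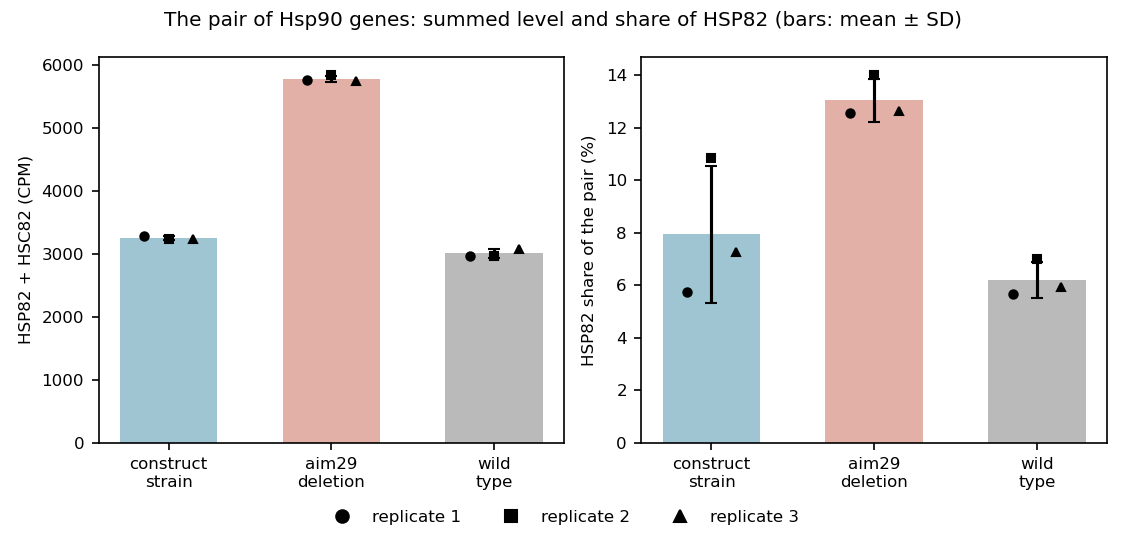
Summed CPM of HSP82 and HSC82 (left) and the share of HSP82 in that sum in percent (right) for the construct strain, the deletion strain and the wild type; bars are means with SD (n = 3) and symbols are libraries. The sum is near 5775 CPM in the deletion strain and near 3002 CPM in the wild type, and the share in construct library 2 reaches 10.8%.

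Levels can be compared between genes only per length, here as CPM per kilobase of coding sequence. On this scale HSC82 was the most abundant of the 10 transcripts in every group, at 1411 ± 49.0 in the construct strain, 2371 ± 6.68 in the deletion strain and 1330 ± 33.2 CPM per kilobase in wild-type cells (SD, n = 3). SBA1 was second in every group, at 638 ± 27.9 in the construct strain, 714 ± 7.24 in the deletion strain, against 639 ± 3.38 CPM per kilobase in the wild type. HSP82 was the ninth in the wild type, at 87.3 ± 9.35 CPM per kilobase, within the spread of CPR7 at 86.2 ± 5.25. In the deletion strain HSP82 was the fifth, at 354 ± 25.1, next to AHA1 at 331 ± 3.68 CPM per kilobase, and in the construct strain it was the seventh, at 121 ± 39.2.

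The levels of the 8 co-chaperones were also set against the summed Hsp90 pair on the per-kilobase scale. STI1 transcripts stood at 22.9 ± 2.0% of the pair in the construct strain, 23.3 ± 0.631% in the deletion strain, against 20.4 ± 0.940% in the wild type. AHA1 transcripts stood at 13.3 ± 1.14% of the pair in the construct strain, 12.2 ± 0.0680% in the deletion strain, against 13.2 ± 0.635% in the wild type. The deletion libraries lay above all wild-type libraries for STI1 and below them for AHA1, and the construct libraries overlapped the deletion libraries for both. The other 6, called (HCH1 and CPR6) or not (CPR7, SBA1, CDC37 and CNS1), stood lower relative to the pair in every deletion library than in any library of the other strains. The pair itself rose, from a mean of 3002 CPM in the wild type to 5775 CPM in the deletion strain. Any gene that rose less, or did not change, therefore falls in this ratio, so the fall is not a trait of these 6 genes. The share of all tested genes that fall in it was not counted. HCH1 was at 24.5 ± 1.24% of the pair in the construct strain, 19.2 ± 1.17% in the deletion strain, against 25.1 ± 0.684% in the wild type. CPR6 was at 10.01 ± 0.910% in the construct strain, 7.81 ± 0.0659% in the deletion strain, against 9.54 ± 0.167% in the wild type. For CPR7, whose own groups overlapped between the deletion strain and the wild type, the ratio was at 5.81 ± 0.200% of the pair in the construct strain, 3.12 ± 0.0308% in the deletion strain, against 6.09 ± 0.466% in the wild type. SBA1 was at 41.6 ± 1.49% of the pair in the construct strain, 26.2 ± 0.306% in the deletion strain, against 45.1 ± 0.797% in the wild type. CDC37 was at 7.32 ± 0.653% in the construct strain, 3.93 ± 0.111% in the deletion strain, against 7.45 ± 0.0573% in the wild type. CNS1 was at 6.61 ± 0.744% in the construct strain, 4.28 ± 0.116% in the deletion strain, against 8.71 ± 0.763% in the wild type. These are ratios of transcripts and say nothing of the proteins.

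Other genes tied to Hsp90 were mostly not called. Of 12 further genes of Hsp90-linked factors (PPT1, SGT1, PIH1, TAH1, RVB1, RVB2, SHE4, TOM70, TEL2, TTI1, TTI2 and ASA1), 0 were higher and 1 was lower in the deletion strain than in the wild type, where 4.24% of all tested genes were higher and 2.16% lower; 3 of the 12 had an unadjusted p under 0.05, where 21.8% of all tested genes did. The called gene was RVB2, an AAA+ ATPase of the R2TP complex that works with Hsp90 (log2 fold change −0.23 ± 0.05, adjusted p = 0.0270 by edgeR). Between the construct strain and the deletion strain edgeR called 0 of the 12, where it called 1.66% of all tested genes higher and 3.72% lower. An unadjusted p under 0.05 was found for 3 of the 12, near the 22.5% of all tested genes; the lowest p values were those of RVB2 (0.17 ± 0.05, adjusted p = 0.0911) and its partner RVB1 (0.16 ± 0.05, adjusted p = 0.116). Between the construct strain and the wild type 0 were called as well, and 0 had an unadjusted p under 0.05, where 12.8% of all tested genes did, with PPT1, the Hsp90 phosphatase, at −0.13 ± 0.06 (adjusted p = 0.403) and TEL2, a chaperone of large kinases, at 0.20 ± 0.09 (adjusted p = 0.416). The medians of the 12 log2 fold changes were 0.02, −0.02 and −0.03 in the order of these comparisons.

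Genes of 10 proteins known as clients of Hsp90 in yeast were described in the same way. SWE1, the Wee1-type kinase of the cell cycle, was lower in the deletion strain than in wild-type cells (log2 fold change −0.41 ± 0.06, adjusted p = 0.00317 by edgeR) and higher in the construct strain when set against the deletion strain (0.47 ± 0.06, adjusted p = 0.00152). The other 9 (HSF1, STE11, GCN2, CNA1, CMP2, SLT2, CTF13, CDC28 and HAP1) were not called in any comparison. Of all tested genes, 4.24% were called higher and 2.16% lower in the deletion strain against the wild type. For the construct strain 1.66% were higher and 3.72% lower against the deletion strain, and 0.117% and 0.067% against the wild type. So 1 call or none among 10 genes is near that background. Against the deletion strain, SWE1, HAP1 and CDC28 had an unadjusted p under 0.05 in the construct strain, where 22.5% of all tested genes did. For the deletion strain against the wild type this held for SWE1 alone, beside 21.8% of all tested genes. For the construct strain against the wild type it held for no client, beside 12.8%. The client medians were 0.02 for the deletion strain against the wild type and 0.07 for the construct strain against the deletion strain. HSF1, the gene of the heat shock factor itself, was at 0.11 ± 0.06 for the deletion strain against the wild type and −0.04 ± 0.06 for the construct strain against the deletion strain. For the construct strain against the wild type the lowest client p values were those of CMP2 (0.25 ± 0.13, adjusted p = 0.430) and HAP1 (0.21 ± 0.11, adjusted p = 0.455).

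The Hsp70 genes and factors that hand clients to Hsp90 moved with it in part, in a list also chosen with earlier results of these data known. Of 10 such genes (SSA1, SSA2, SSA3, SSA4, SSE1, SSE2, YDJ1, SIS1, FES1 and SNL1), 6 were higher in the deletion strain than in the wild type, where 4.24% of all tested genes were, with a median log2 fold change of 0.61 over the 10. The same 6 (SSA1, SSA2, SSE1, YDJ1, SIS1 and FES1) were lower in the construct strain against the deletion strain, where 3.72% of all tested genes were, with a median of −0.57. For the construct strain against the wild type 0 of 10 were called, where 0.117% of all tested genes were higher and 0.067% lower. SIS1, a J-protein gene, was at 1.38 ± 0.09 on the log2 scale for the deletion strain against the wild type (adjusted p = 8.37e-06 by edgeR) and at −1.07 ± 0.09 for the construct strain against the deletion strain (adjusted p = 6.57e-05). YDJ1, which encodes another J-protein, was at 0.62 ± 0.05 for the deletion strain against the wild type (adjusted p = 3.19e-05), and the Hsp110 gene SSE1 at −0.59 ± 0.05 for the construct strain against the deletion strain (adjusted p = 6.08e-05). The Hsp70 genes SSA1 and SSA2 were at 1.68 ± 0.09 and 1.01 ± 0.06 for the deletion strain against the wild type (adjusted p = 4.47e-06 for each) and at −1.39 ± 0.09 and −0.90 ± 0.05 for the construct strain against the deletion strain (adjusted p = 9.83e-06 and 8.81e-06). Only 42.1% and 41.8% of their 50-base windows are unique in the genome, so the split between them is uncertain. Between the construct strain and the wild type the lowest p values were those of SIS1 (0.31 ± 0.09, adjusted p = 0.247) and SSA1 (0.28 ± 0.09, adjusted p = 0.270), and 2 of the 10 had an unadjusted p under 0.05, where 12.8% of all tested genes did.

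Outside the 10 genes, the 5051 tested genes that averaged 10 CPM or more were ranked by the likeness of their log2 CPM, as Pearson's r over the 9 libraries, which share the 3 groups. The genes most like HSP82 were SIS1 (r = 0.991 over 9 libraries), BTN2 (0.989) and CUR1 (0.987), the last pair encoding factors that sort misfolded proteins. The genes most like HSC82 were SSA2 (r = 0.999), the tail-anchored protein factor gene SGT2 (0.994) and the Hsp110 gene SSE1 (0.991). These genes were picked for likeness over the same libraries, so their levels are a description. In the construct libraries SIS1 had 279, 352 and 272 CPM, BTN2 37.7, 66.1 and 41.6 CPM, and CUR1 20.2, 40.8 and 28.8 CPM. SSA2 had 3246, 2928 and 3097 CPM there, SGT2 562, 559 and 544 CPM, and SSE1 1343, 1332 and 1260 CPM.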

How the data were processed

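The values deposited by the authors are raw read counts per feature and library. The submitters' processing notes name FastQC 0.11.5, STAR 2.7.0, DESeq2 1.34.0 and build R64. Counting tool, strand setting, read length and the handling of shared reads: not given in the sources used here. Genes passing filterByExpr were tested with edgeR 4.0.16 in R 4.3.3 (TMM, glmQLFit, glmQLFTest) in a fit of all 9 libraries on group alone. The fit had 6 residual degrees of freedom, with Benjamini-Hochberg adjustment at 0.05. This step was also tested on simulated data, for the deletion strain against the wild type only. The simulated construct group had less spread than the real one. Standard errors come from the fit of the 9 real libraries. Each is the absolute log2 fold change divided by the square root of the test's F statistic. In these libraries 3 counts are worth 0.149 to 0.209 CPM, and the lowest count of the 10 genes was 1418. No replicate pair agreed within sampling noise (chi-square 2.91 to 65.8 for each degree of freedom). Groups and replicate numbers come from the titles. The p-values rest on an estimate of the spread between isolates per gene that all 9 libraries share. The wider spread of the construct libraries thus also enters the deletion strain against the wild type. The narrower spread of the other groups enters the comparisons with the construct strain. With only the 2 groups compared, the adjusted p of HSP82 by edgeR was 3.09e-14 for the deletion strain against the wild type, not 0.000116. For the construct strain against the deletion strain it was 0.00766, not 0.000686. The 10 genes and all lists were chosen with earlier results of these data known. Named genes are the 10, AIM29, ZPR1, HSF1, up to 4 called genes of each list with the lowest p (or the 2 lowest where none is called) and the 3 most like HSP82 and HSC82. Windows were cut from the R64 genome. Alternatives were other factors, filters and tests (DESeq2 1.42.0, limma 3.58.1), the 2 groups compared alone, a replicate block, leaving out each library and an adjusted p under 0.01.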

Additional observations from a re-analysis of the deposited data

How the results depend on the processing

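The 6 calls in the deletion strain against the wild type and the 6 in the construct strain against the deletion strain kept direction and threshold for each of the 6 genes under all 18 alternatives and at an adjusted p under 0.01. SBA1 was called higher in the deletion strain than in the wild type under 6 alternatives, among them the fits without construct replicate 1, 2 or 3 (adjusted p = 0.0400, 0.0334 and 0.0268), with adjusted p from 0.00173 to 0.23 over all 18; it was called lower in the construct strain against the deletion strain by DESeq2 and without construct replicate 1 (0.0308). Between the construct strain and the wild type, the number of the 10 genes called higher was 1 by DESeq2 and ran from 0 to 2 over fits without 1 library. Signs turned for values near 0 that were not called, and the cause was not tested: CPR7 (deletion strain against wild type) was at 0.032 without wild-type replicate 1 (range −0.055 to 0.032 without 1 library), CDC37 in the same comparison at −0.032 without composition factors and −0.0045 without deletion replicate 2 (−0.0045 to 0.044), CDC37 (construct strain against deletion strain) at −0.0050 without construct replicate 1 (−0.0050 to 0.13), and SBA1 (construct strain against wild type) at 0.0012 with no low-count filter, 0.031 with quality weights and −0.039 to 0.023 without 1 library, above 0 without wild-type replicate 3 (0.0021) and construct replicates 2 (0.023) and 3 (0.0025).

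Counts over all genes moved more than those of the 10. For the deletion strain against the wild type, 253 genes were higher and 129 lower; limma-voom with quality weights gave 827 and 736, the 2 groups alone 837 and 751, an adjusted p under 0.01 gave 123 and 40, and fits without 1 library 122 to 577 and 40 to 520. DESeq2 called 232 lower, and without composition factors 316 were lower and 37.2% of calls were higher, against 66.2%. For the construct strain against the deletion strain, 99 were higher and 222 lower; the counts were 233 and 388 with quality weights, 30 and 123 for the 2 groups alone, 30 and 113 at 0.01, and 31 to 312 and 114 to 408 without 1 library. In that comparison DESeq2 called 195 higher, and without composition factors 196 were higher and 52.0% of calls were higher, against 30.8%. For the construct strain against the wild type, 7 were higher and 4 lower, with 39 and 33 by DESeq2, 25 and 15 with quality weights, 3 and 1 for the 2 groups alone, 4 and 1 at 0.01, and 3 to 33 and 1 to 40 without 1 library. In each comparison the counts were above the full ones without any of the construct libraries (for the deletion strain against the wild type, 577 and 520 without construct replicate 3) and below them without any deletion or wild-type library.

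Deviations of same-numbered libraries from their group means had correlations from −0.107 to 0.0745, and those of differently numbered libraries from −0.132 to 0.14. This shows no pairing by number, but with 3 libraries in each group it cannot exclude that same-numbered libraries were made together. With the replicate block, 6 and 6 of the 10 genes were called as before, with 232 and 96 genes higher and lower in the deletion strain than in the wild type. The exact sign-flip test of the HSP82 to HSC82 ratio with the block gave p = 0.25 in each comparison, the smallest value 3 pairs allow. The ratio kept its direction without each library, at 1.12 to 1.28, −1.12 to −0.62 and 0.07 to 0.57 in the 3 comparisons.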
